A study of Homo sapiens with 14 samples.

Results

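Cytosolic ribosomal protein genes encode the proteins of the large and the small subunit of the cytosolic ribosome. They were taken as the protein-coding GENCODE genes with a symbol of RPL or RPS and digits, with an optional A, L, X or Y and further digits, together with RPLP0, RPLP1, RPLP2 and RPSA. The 2 genes of this kind on chromosome Y were left out. The rule gave 85 of 58440 genes, of which 53 belonged to the large and 32 to the small subunit. The choice used symbols and no measured value.

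The genes were examined in mixtures of HEK-293T cells, an adherent human embryonic kidney line that carries the SV40 large T antigen, and Jurkat cells, which come from a human T cell leukemia and grow unattached. There were 14 libraries, 2 for each of 7 conditions: 100%, 80%, 60%, 50%, 40%, 20% and 0% HEK cells, the rest being Jurkat cells. No cells were treated, and all mixtures held the same total number of cells. By the labels, libraries of the same condition are technical replicates, so the spread and the p-values below describe repeated libraries and not independent cultures. HEK cells were cultured in DMEM and Jurkat cells in RPMI, and the line and the medium cannot be told apart.

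A cytosolic ribosome holds 1 copy of nearly every ribosomal protein, and cells make the proteins of both subunits in matched amounts. Most of their mRNAs begin with a C and a run of pyrimidines, the terminal oligopyrimidine (TOP) sequence, through which mTOR and the RNA-binding protein LARP1 adjust their translation and stability. Ribosomal protein mRNAs are short and rank among the most abundant mRNAs of dividing cells. Several of the genes have a paralog with a restricted or low expression, and most have processed pseudogenes in the genome.

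The libraries held between 4468822 and 28303668 counts on genes, and the pure Jurkat libraries were the shallowest. ERCC spike-ins, synthetic RNAs added in a fixed volume to the captured mRNA, took 0.674% to 7.65% of all counts. All 8 Jurkat markers (among them CD3D, CD3E and LCK) and all 8 HEK markers (among them KRT8, KRT18 and CDH2) were higher in their own line, and none was at the floor of 3 counts there. The summed level of the Jurkat markers was 5.61 and 2.51 CPM (gene counts scaled to a common library total) in pure HEK cells and 2393 and 2833 CPM in pure Jurkat cells. Names of the deposited files carry 1 of 2 marks, on 8 and on 6 libraries, whose meaning the sources used here do not give. The set of 6 contains the pure HEK libraries and the set of 8 the pure Jurkat libraries. Among these 4 libraries the file name group and the line thus cannot be told apart. In the mixtures, both libraries at 80% HEK are in the set of 6 and all at 40% and 20% in the set of 8. Differences between 80% and 20% HEK are therefore also differences between the file name groups.

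Ribosomal protein genes took a larger share of the mRNA counts in HEK than in Jurkat cells. The 85 genes held 12.5% and 11.8% of the gene counts in pure HEK cells and 7.29% and 8.48% in pure Jurkat cells, a ratio of the means of 1.54. The lines did not overlap. Both subunits took part: the large subunit genes held on average 7.60% against 5.04% and the small subunit genes 4.56% against 2.84%. Counts of the large subunit were 1.67 times those of the small subunit in HEK and 1.77 times in Jurkat cells. By TPM, in which values are divided by transcript length, the shares were 22.1% and 15.3%. Other measures of the libraries differed between the lines as well. MALAT1, a long nuclear RNA, had 1148 and 1540 CPM in HEK and 3685 and 6018 CPM in Jurkat cells, the highest of the 14 libraries. Other protein-coding genes with transcripts under 1000 bases took 23.6% and 23.7% of the counts in HEK and 22.1% and 21.6% in Jurkat cells, and genes of the mitochondrial genome, several of which are also short, took 6.86% and 6.47% against 4.14% and 5.41%. On both measures the Jurkat libraries were the lowest of the 14. The part of these differences in the share was not tested. The 95% Wilson interval of a library's share was at most 0.0482 percentage points wide. It covers counting error alone and takes each count as independent, though reads carried no molecular identifiers.

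The mixed libraries did not fill the range between the pure lines in order. With 80% HEK cells the share was 11.4% and 12.5%, with 60% it was 13.9% and 13.7%, and with 50% it was 11.1% and 15.7%. With 40% it was 10.7% and 13.3%, and with 20% it was 11.7% and 11.6%. All 10 mixed libraries lay above both pure Jurkat libraries, and 5 of the 10 lay above the higher pure HEK library. The 2 libraries at 50% HEK differed 1.42-fold and those at 40% HEK 1.25-fold, against 1.06-fold between the pure HEK libraries and 1.16-fold between the pure Jurkat libraries. Replicate 2 at 50% HEK had the highest share of all 14 libraries, and 49 of the 85 genes had their highest mixed level in it. In the same library, the other genes with short transcripts took 25.4% of the counts, the highest of the 14 libraries, and MALAT1 had 405 CPM, the lowest. Replicate 1 at 40% HEK had the lowest share of the mixed libraries and the lowest mixed level of 43 genes. The part of these values in the results below was not tested.

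**Figure D1:**
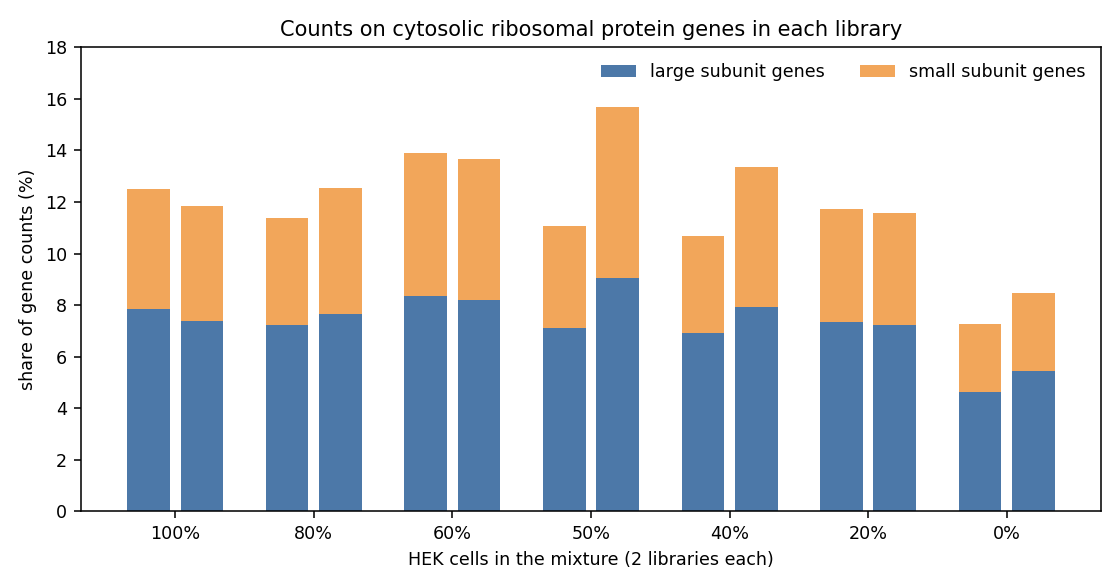
Share of gene counts (%, vertical axis) on large subunit (blue) and small subunit (orange) ribosomal protein genes in each of the 14 libraries, ordered by the percentage of HEK cells. The pure Jurkat libraries stand at 7.29% and 8.48%, below all other libraries, and the highest bar, 15.7%, is 1 of the 2 libraries at 50% HEK.

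In most of the genes with a known start the sequence that defines TOP mRNAs stood there, and it differed between several genes and their paralogs. RefSeq start regions (GRCh38.p14) were matched for 68 of the 85 genes. A C followed by 4 or more pyrimidines stood at the annotated start, on the strand of the gene, in 43 of the 68 (63.2%) and in 4.04% of 27305 start regions of all genes. When the C could lie within 2 bases of the annotated start, 46 of the 68 (67.6%) and 10.5% of all start regions had it. Windows of 30 bases, from 10 before the annotated start to 20 from it, are shown for genes whose levels are described below. They run 5′ to 3′ and the longest run of C and T is in capitals, so that a gene can be compared with its paralog.
RPL39 (chrX:119791611-119791640, minus strand): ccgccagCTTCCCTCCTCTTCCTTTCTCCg
RPS4X (chrX:72277229-72277258, minus strand): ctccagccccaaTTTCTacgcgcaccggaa
RPL36A (chrX:101391001-101391030, plus strand): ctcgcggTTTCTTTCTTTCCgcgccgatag
RPL36AL (chr14:49620607-49620636, minus strand): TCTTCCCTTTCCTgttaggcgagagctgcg
RPL22 (chr1:6199576-6199605, minus strand): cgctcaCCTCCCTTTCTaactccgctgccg
RPL22L1 (chr3:170870176-170870205, minus strand): ccgtagCTTCCTCTCTgctctcgcggccga
RPL26 (chr17:8383174-8383203, minus strand): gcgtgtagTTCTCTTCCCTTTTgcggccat
RPL26L1 (chr5:172958719-172958748, plus strand): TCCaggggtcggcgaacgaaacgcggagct
RPS27 (chr1:153990752-153990781, plus strand): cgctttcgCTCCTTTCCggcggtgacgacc
RPS27L (chr15:63157458-63157487, minus strand): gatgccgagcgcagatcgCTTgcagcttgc
RPLP0 (chr12:120201092-120201121, minus strand): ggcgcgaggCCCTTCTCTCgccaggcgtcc
RPLP1 (chr15:69452808-69452837, plus strand): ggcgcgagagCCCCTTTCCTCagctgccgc
RPLP2 (chr11:809957-809986, plus strand): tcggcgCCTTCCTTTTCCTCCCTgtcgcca

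The longest runs spanned 22 bases in RPL39, 11 in RPL22 and 10 in its paralog RPL22L1. RPL26L1 and RPS27L had runs of only 3 bases where RPL26 had 14 and RPS27 had 9. In RPL36AL the run of 13 bases lay mostly before the annotated start and ended 3 bases into the transcript, and in RPS4X the longest run was 5 bases, beginning after the annotated start. A match describes the annotated start only, since start sites were not measured in these libraries. Among further short motifs searched in the 300 bases around the start (250 before and 50 after) on both strands, CCGGAA, the core bound by ETS factors, was in 54.4% of the 68 genes and 17.6% of all start regions. CGCGAGA was in 23.5% against 3.53%, AAGATGGC, part of the YY1 motif, in 10.3% against 3.03%, and TATAAA in 10.3% against 12%. The median log2 fold change between the pure lines, given next, was 0.51 for the 46 genes with a TOP start within 2 bases and 0.59 for the 21 tested genes without it.

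Gene by gene, the pure lines were compared with edgeR's quasi-likelihood test on rounded expected counts. The libraries were scaled by TMM, which takes most genes as unchanged. A fold change is thus relative to other genes and does not measure the amount per cell. The CPM values are not scaled in this way and can give a different ratio. With library totals in place of TMM, the median log2 fold change of all genes was 0.23 higher. Of the 85 genes 84 were tested, RPL10L being too low. At an adjusted p under 0.05 over all 15794 genes tested, 29 were higher in HEK cells and 1, RPL39L, was higher in Jurkat cells. Of all genes tested, 24.2% were called higher in HEK and 19.0% lower. The median log2 fold change of the 84 genes was 0.52 against 0.07 for all genes tested, and 71 of the 84 estimates were above 0. Among the 1777 tested genes of at least 100 CPM the median was −0.16. In CPM, the lines did not overlap with HEK higher for 66 genes and with HEK lower for 2, RPL39L among them, while 16 overlapped. For all genes tested these shares were 47.2% and 27.6%. Fits without 1 library compare 1 library with 2 and have less power to call a gene. Without HEK replicate 1 or 2, 71 and 72 of the 84 estimates were above 0. Without Jurkat replicate 1 or 2 these numbers were 66 and 78. RPL22L1, RPL29, RPL3, RPL36A, RPL39, RPL8 and RPS4X were called higher under all alternatives run except a fit over all 14 libraries with the percentage of HEK cells and the file name group as terms, which called 0 of the 84 higher by edgeR (1 at an unadjusted p under 0.05) and RPL39L lower.

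**Figure D2:**
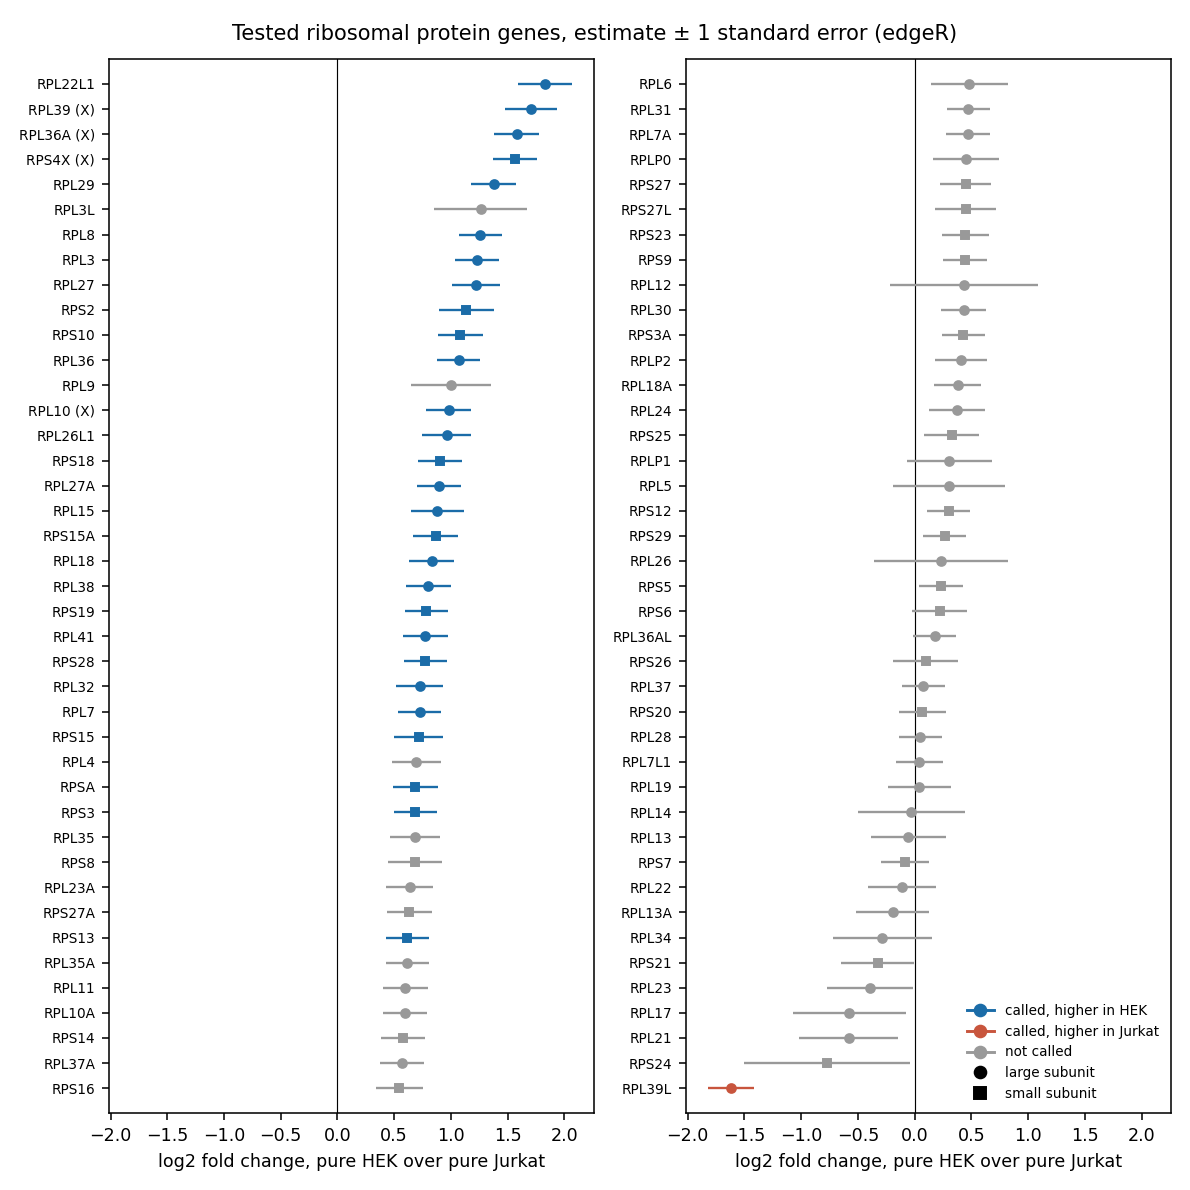
Log2 fold change of pure HEK over pure Jurkat cells (horizontal axis) with 1 standard error for tested genes, in order, with called genes in blue (higher in HEK) or red (higher in Jurkat) and X-linked genes marked (X). The estimates run from −1.62 for RPL39L to 1.83 for RPL22L1, and the long bars belong to genes such as RPS24 and RPL12, whose Jurkat libraries differed 4.97- and 3.77-fold.

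Of the 52 large subunit genes tested, 17 were called higher in HEK and 1 lower, with a median log2 fold change of 0.53. RPL39 encodes a very small basic protein that lines the exit tunnel of the ribosome. It stood at 3032 and 2319 CPM in pure HEK cells and 678 and 724 CPM in pure Jurkat cells. The groups were far apart, with a log2 fold change of 1.70 (SE 0.23, adjusted p 0.00474, edgeR). RPL36A, whose protein lies near the exit site for tRNA, had 1793 and 1955 CPM in HEK and 544 and 529 CPM in Jurkat cells (log2 fold change 1.58, SE 0.20, adjusted p 0.00379). The 2 libraries of each line lay close together for this gene. RPL29 was at 1108 and 1037 CPM against 338 and 366 CPM, a log2 fold change of 1.38 (SE 0.20, adjusted p 0.00554).

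RPL8, RPL3, RPL10 and RPL27 were also called higher. RPL8, a core protein near the peptidyl transferase center, had 1201 and 1223 CPM in HEK and 433 and 433 CPM in Jurkat cells (log2 fold change 1.26, SE 0.19, adjusted p 0.00647). RPL3, whose protein reaches into the same center, had 558 and 543 CPM against 207 and 194 CPM (log2 fold change 1.23, SE 0.19, adjusted p 0.00700). RPL3 shares its reads with pseudogenes: those named for it held 140 counts for each 100 of its own. With the counts of named pseudogenes added to each gene, 31 of the 84 were called higher and 1 lower. RPL10, which joins the large subunit late in its assembly, was at 1335 and 1182 CPM against 538 and 551 CPM (log2 fold change 0.98, SE 0.20, adjusted p 0.0145). RPL27 was at 924 and 848 CPM against 355 and 296 CPM (log2 fold change 1.22, SE 0.21, adjusted p 0.00903). In these genes too the lines did not overlap. RPL10 lost its call in 3 of 12 alternatives and RPL27 in 2, with log2 fold changes from 0.56 to 1.21 and from 1.03 to 1.45.

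Of the 32 small subunit genes, all tested, 12 were called higher in HEK and 0 lower by edgeR (0 at an unadjusted p under 0.05 and 0 by DESeq2), with a median log2 fold change of 0.50. RPS4X led them at 1676 and 1636 CPM in HEK and 479 and 478 CPM in Jurkat cells. The 2 libraries of each line nearly coincided, and the log2 fold change was 1.57 (SE 0.19, adjusted p 0.00362). Others called included RPS2, RPS3, RPS10, RPS13, RPS15, RPS19 and RPSA. RPS2 and RPS3 sit where the mRNA enters the subunit, and RPS19 is among the genes mutated in Diamond-Blackfan anemia. RPSA, the laminin receptor gene, was at 1056 and 1078 CPM against 533 and 600 CPM (log2 fold change 0.69, SE 0.20, adjusted p 0.0418), and was called in 7 of 12 alternatives. Near the threshold, RPS13 had an adjusted p of 0.0495 and RPS27A, which is made as a fusion with ubiquitin, 0.0504 by edgeR.

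Of the genes with a paralog, RPL39 and RPL39L were called in opposite directions, and in 5 further pairs with both genes tested only 1 of the genes was called. RPL39L, a paralog of RPL39 known from testis and from some tumors, had 22.7 and 23.4 CPM in HEK and 62.0 and 59.2 CPM in Jurkat cells, opposite to RPL39. Its log2 fold change was −1.62 (SE 0.20, adjusted p 0.00366, edgeR), and it was called lower in all 12 alternatives (−1.66 to −1.39, adjusted p from 1.69e-05 to 0.0372). Per 100 TPM of RPL39, RPL39L had 0.400 and 0.524 TPM in the HEK libraries and 4.75 and 4.56 TPM in the Jurkat libraries. All 10 mixed libraries were below both Jurkat libraries, with a median of 0.818. The 2 at 80% HEK, at 0.427 and 0.423, lay between the pure HEK libraries, and the 2 at 20% HEK, at 0.927 and 1.16, were the highest of the mixed ones.

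RPL22L1 differed between the lines where RPL22 was not called. RPL22L1 had 99.6 and 131 CPM in HEK and 27.7 and 27.8 CPM in Jurkat cells (log2 fold change 1.83, SE 0.24, adjusted p 0.00418). RPL22, an RNA-binding protein with a known role in T cell development, had 1040 and 1273 CPM against 824 and 1306 CPM, and the lines overlapped (log2 fold change −0.11, SE 0.30, adjusted p 0.793). Its estimate changed sign between alternatives. Per 100 TPM of RPL22, RPL22L1 had 12.9 and 14.7 TPM in HEK and 4.77 and 3.47 TPM in Jurkat cells. In the mixed libraries this ratio ran from 6.14 to 20.0.

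RPL36A and RPL36AL encode nearly identical proteins from different chromosomes. RPL36AL had 257 and 257 CPM in HEK and 191 and 197 CPM in Jurkat cells (log2 fold change 0.18, SE 0.19, adjusted p 0.489), where RPL36A was called higher. Per 100 TPM of RPL36A it had 8.25 and 7.54 TPM in HEK and 20.7 and 22.1 TPM in Jurkat cells. RPL26L1 was called higher in HEK at 92.8 and 88.7 CPM against 35.7 and 43.9 CPM (log2 fold change 0.96, SE 0.22, adjusted p 0.0204). Its partner RPL26 had 2816 and 3118 CPM in HEK, and 943 and 3352 CPM in Jurkat cells. The Jurkat libraries of RPL26 lay on both sides of HEK, and its log2 fold change was 0.23 (SE 0.59), 1.44 without Jurkat replicate 2 and −0.42 without Jurkat replicate 1.

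In the remaining pairs the lines lay closer or the paralog was low. RPS27, at 2956 and 3204 CPM against 1703 and 2146 CPM, and RPS27L, at 100 and 73.6 CPM against 46.8 and 61.7 CPM, had the same log2 fold change of 0.45, and neither was called (adjusted p 0.161 and 0.228, edgeR). RPL7 was called higher (log2 fold change 0.72, SE 0.19, adjusted p 0.0319), and RPL7L1, at 644 and 536 CPM against 470 and 509 CPM, was not (0.04, SE 0.21). RPL7 is another gene with many pseudogene reads, at 56.6 counts for each 100 of its own. RPLP0 had 61.6, RPL36A 35.7 and RPL39 35.4, against a median of 2.03 over the genes. The TPM ratios of paralogs leave the pseudogene reads out. RPL3L, the paralog of RPL3 known from striated muscle, had 2.96 and 2.84 CPM in HEK and 0.895 and 1.13 CPM in Jurkat cells (log2 fold change 1.26, SE 0.41, adjusted p 0.0562). RPL10L, known from testis, was at 0 counts in both Jurkat libraries and at no more than 0.0719 CPM in HEK, under the floor of 3 counts in both lines. The differences between the members of a pair were not tested.

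**Figure D3:**
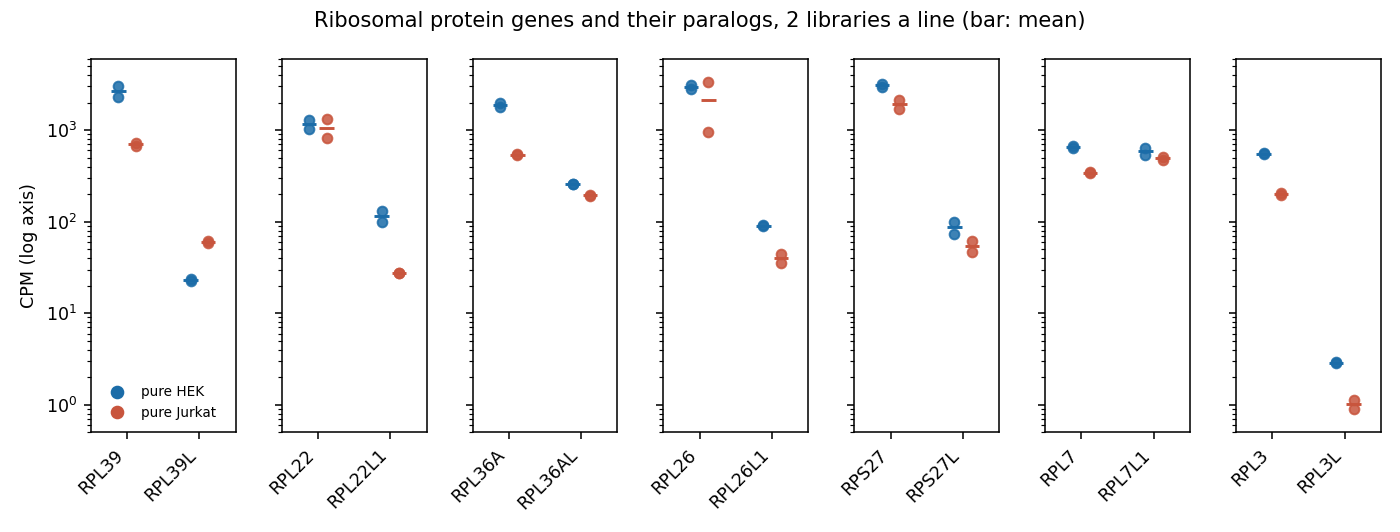
Level in CPM (vertical log axis) of 7 ribosomal protein genes and their paralogs in the 2 pure HEK (blue) and 2 pure Jurkat (red) libraries, with the mean as a bar. RPL39 and RPL39L lie in opposite order between the lines, and RPL22L1 is higher in HEK while the libraries of RPL22 overlap.

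Per transcript length, the genes spanned a wide range and kept much of their order between lines. In HEK cells 82 of 85 genes had at least 100 TPM, with a median of 1972 TPM, and in Jurkat cells 79 did, with a median of 1384 TPM. Over the 79 genes of at least 100 TPM in both lines, log2 TPM in one line and in the other had a Pearson r of 0.91, a correlation across genes that share libraries and transcript lengths. The highest in HEK were RPS27 with 9317 TPM, RPL41, which encodes the smallest ribosomal protein, with 9312 TPM, and RPL23 with 8283 TPM. By counts the order differed, and RPL5 had the highest mean in both lines, 7040 CPM in HEK and 4901 CPM in Jurkat cells. Its Jurkat rank rests on replicate 1, at 7190 CPM, since in replicate 2 it had 2612 CPM, below RPL23 with 4687 CPM. The study primed its cDNA with oligo(dT), and whether counts rise with transcript length in these libraries was not tested. RPL41 was called higher in HEK (log2 fold change 0.78, SE 0.19, adjusted p 0.0275) and lost its call in 5 of 12 alternatives. In Jurkat cells RPL23 led with a mean of 9924 TPM, before RPL34 with 7449 and RPL21 with 6357 TPM. These 3 genes had a negative log2 fold change and were not called: −0.39 (SE 0.38) for RPL23, −0.29 (SE 0.44) for RPL34 and −0.58 (SE 0.44) for RPL21. Their order rests on single libraries, since RPL23 had 2299 and 4687 CPM and RPL21 1883 and 4139 CPM in the Jurkat libraries, and RPL34 had 3933 and 1600 CPM in the HEK libraries.

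The stalk proteins RPLP0, RPLP1 and RPLP2, which recruit translation factors to the large subunit, were not called between the pure lines. RPLP0 had 808 and 1280 CPM in HEK and 710 and 598 CPM in Jurkat cells (log2 fold change 0.45, SE 0.29, adjusted p 0.260). RPLP2 had 1923 and 2435 CPM against 1535 and 1276 CPM (log2 fold change 0.41, SE 0.23, adjusted p 0.209). RPLP1 had 1794 and 1797 CPM in HEK but 816 and 1658 CPM in Jurkat cells, and its log2 fold change of 0.31 (SE 0.37) became 0.93 without Jurkat replicate 2 and −0.13 without Jurkat replicate 1. All HEK libraries were above all Jurkat libraries for these 3 genes, as they were for 47.2% of all genes tested.

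How closely 2 libraries of a condition agreed differed widely from gene to gene. Among the 79 genes of at least 100 CPM, the median SD between paired libraries was 0.310 on the log2 scale, against 0.305 for 1698 other genes of that level. In at least 1 condition, 21 genes (26.6%) differed over 2-fold between its libraries, against 31.3% of the other genes. The Jurkat libraries differed over 2-fold for 9 genes (11.4% against 9.48% of the others) and by less than 1.1-fold for 38 (48.1% against 26.8%). RPS24 was the extreme, at 722 and 3586 CPM in the Jurkat libraries against 1711 and 1253 CPM in HEK. Its log2 fold change of −0.77 had an SE of 0.73. RPL12, which forms the base of the stalk, had 186 and 702 CPM in Jurkat cells, and RPL26, RPL17, RPL5 and RPL14 differed 3.56-, 2.81-, 2.75- and 2.64-fold between the Jurkat libraries. RPL5, at 7190 and 2612 CPM, was higher in replicate 1, while the other 5 were higher in replicate 2. Without Jurkat replicate 1, RPL17, RPL23 and RPS24 were called lower in HEK beside RPL39L.

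**Figure D4:**
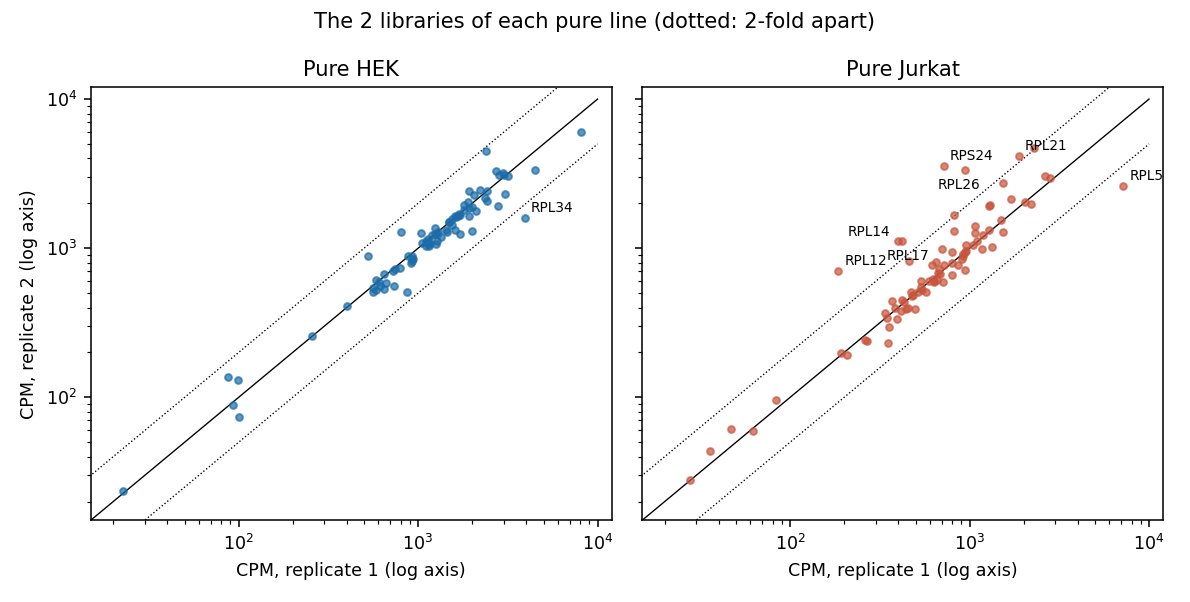
CPM of each ribosomal protein gene in replicate 1 (horizontal log axis) and replicate 2 (vertical log axis) of pure HEK (left) and pure Jurkat cells (right), with the line of equal levels and dotted lines at a 2-fold difference. In Jurkat cells 9 genes lie outside the dotted lines, with RPS24, RPL12, RPL26, RPL17, RPL5 and RPL14 the farthest from the line of equal levels, and in HEK cells RPL34 lies outside.

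The mixtures asked whether the levels follow the percentage of HEK cells in libraries that the comparison above did not use. At an adjusted p under 0.05, edgeR called 0 of the 84 genes tested for a slope over the 10 mixed libraries (3 positive and 6 negative at an unadjusted p under 0.05). DESeq2 called RPLP0, RPL9 and RPL36AL lower with more HEK cells. Of 17242 genes tested by edgeR, 0.528% were called higher and 5.08% lower with HEK, and 6.30% and 11.6% were so at an unadjusted p under 0.05. By DESeq2 5.22% of all genes tested were called lower with HEK. The SE of a slope, the log2 difference for a step from 0% to 100% HEK cells, was 0.331 to 0.871. HEK libraries held 10.0 times as many gene counts per spike-in count as Jurkat libraries, and by this ratio a mixture with 20% HEK cells has 71.5% of its mRNA from HEK cells and one with 80% has 97.6%. The number of cells is the one that was set for each mixture, and in the counts of a bulk library fewer cells of a line and less mRNA per cell cannot be told apart. With the ratio of 10.0, the log2 difference expected between 80% and 20% HEK from the pure lines was small, with a median of 0.16 over 83 genes. The highest value was 0.32, for RPL22L1, and the lowest −0.49, for RPL39L. A lower ratio would give larger expected differences. The paper gives a lower ratio from the spike-ins, and no other ratio was tested here. The observed median was 0.03, and the observed value of RPL39L −1.03. A difference of the size of the median was not detectable with these slopes' errors.

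RPL39L, called lower in HEK between the pure lines, did not pass the adjusted threshold in the mixtures. Its level was 19.2 and 19.1 CPM with 80% HEK cells, 37.4 and 42.0 CPM with 60%, and 24.7 and 37.6 CPM with 50%. It was 27.3 and 47.4 CPM with 40% and 32.3 and 45.7 CPM with 20%. Both libraries at 80% were below all other mixed libraries, and the slope was −1.54 (SE 0.53, unadjusted p 0.0122, adjusted p 0.130, edgeR). The 3 stalk genes also had negative slopes, against their positive difference between the pure lines. RPLP2 had 4136 and 3276 CPM at 20% HEK and 1685 and 1749 CPM at 80%, and its slope was −1.69 (SE 0.57, adjusted p 0.128). The slopes of RPLP0 and RPLP1 were −1.42 (SE 0.45, adjusted p 0.102) and −1.09 (SE 0.41, adjusted p 0.179). RPL36AL had 412 and 381 CPM at 20% HEK, above all 12 other libraries, and 219 and 214 CPM at 80% (slope −1.35, SE 0.37, adjusted p 0.0570). In these 4 genes the mixtures with 20% HEK stood above both pure lines. With the file name group as a term, the slopes were −1.70 for RPLP2, −2.14 for RPLP0, −1.45 for RPLP1, −1.64 for RPL36AL and −1.33 for RPL39L, and 0 of the 84 were called by edgeR (3 positive and 5 negative at an unadjusted p under 0.05). Among genes called higher between the pure lines, the slopes of RPL39 (0.50, SE 0.48) and RPS4X (0.69, SE 0.52) were positive. The slope of RPL36A was negative (−0.57, SE 0.39). RPL12 had the highest slope, 2.40 (SE 0.87, adjusted p 0.158), with 1530 and 2512 CPM at 80% HEK and 736 and 440 CPM at 20%.

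**Figure D5:**
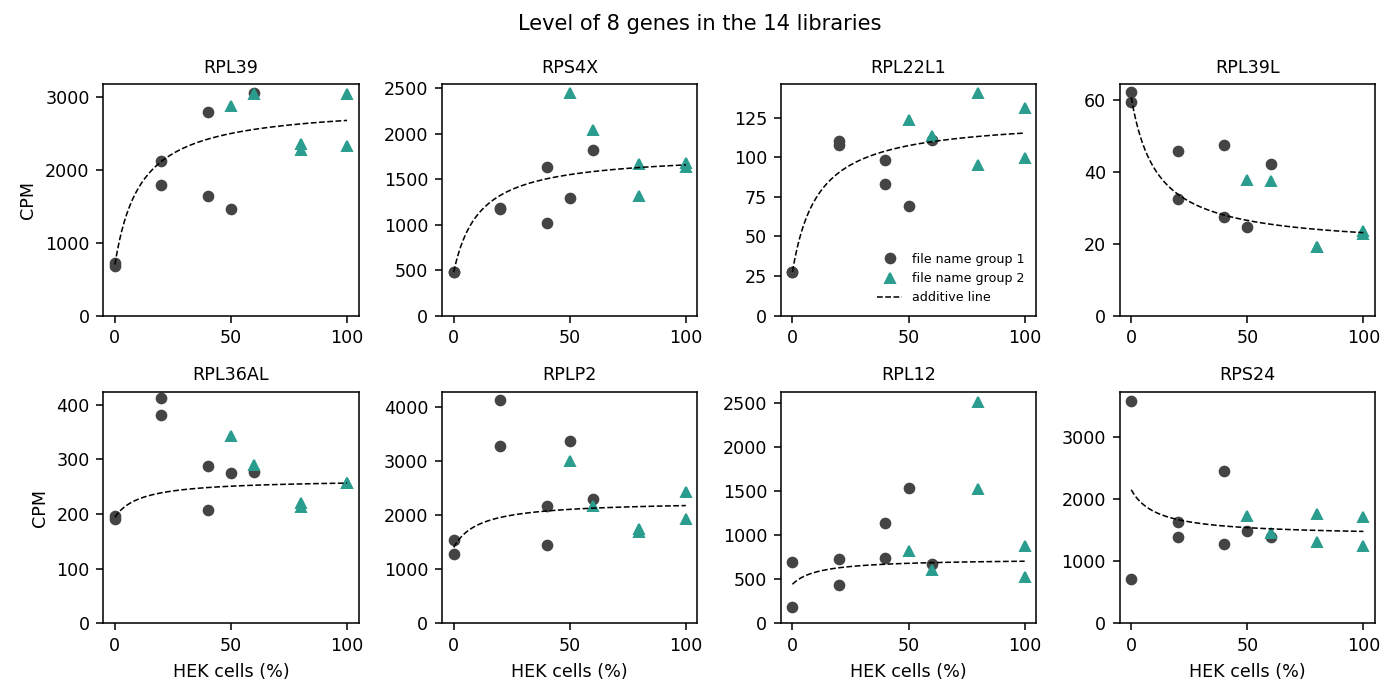
CPM (vertical axis, from 0) of 8 genes in the 14 libraries by the percentage of HEK cells, with circles and triangles for the 2 groups of file names and a dashed line for the level that the mean of the pure lines gives when HEK cells hold 10.0 times the mRNA. Among the mixtures RPL39L is lowest at 80% HEK, and RPL36AL and RPLP2 stand above their dashed lines at 20% HEK.

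The summed level of the 85 genes was then set beside the sum that additive mixing gives. The HEK share of mRNA of each mixed library was estimated from genes that were not ribosomal protein genes. The observed share of counts on the 85 genes was 0.954 to 1.31 times the expected one. It was highest against the expected value in replicate 2 at 50% HEK, with 3.67 percentage points more, and lowest in replicate 1 at 40% HEK. It was above the expected value in 7 of the 10 libraries. RPL3L was above the expected level in all 10 mixed libraries, at 2.49 to 5.56 CPM, and 0 genes were below in all 10. Of all genes, 1.01% were above and 4.48% below in all 10.

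Scaled to spike-ins, HEK libraries held more of nearly every mRNA, ribosomal protein mRNAs included. Counts on the 85 genes per spike-in count were 18.4 and 11.5 in pure HEK cells and 0.880 and 1.04 in pure Jurkat cells, a ratio of 15.6 against 10.0 for all genes. With spike-in totals as library sizes, edgeR called 84 of the 84 genes higher in HEK, and 92.5% of all genes tested. The median log2 fold change was 4.09 for the 84 genes and 3.61 for all genes tested. RPL39L was also higher in HEK on this scale, at 1.92 (SE 0.53), the lowest of the 84. Its lower level in HEK therefore holds relative to other mRNAs only. The other negative estimates are relative to TMM scaling. Some of those genes had the higher mean CPM in HEK, such as RPL22 (1157 against 1065 CPM). The HEK libraries differed 1.60-fold in counts on the 85 genes per spike-in count.

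Genes that build ribosomes or control these mRNAs were counted in the same way. Of 27 ribosome assembly factors, 4 were called higher in HEK and 1 lower, with a median log2 fold change of 0.21, where 24.2% of all genes tested were called higher and 19.0% lower. NPM1, the nucleolar chaperone, was at 1102 and 1484 CPM against 381 and 367 CPM (log2 fold change 1.57, SE 0.24, adjusted p 0.00650), and FBL, which methylates ribosomal RNA, was at 0.91 (SE 0.19, adjusted p 0.0167). BYSL and NOB1, of small subunit assembly, were the others higher, and UTP20 was lower (−0.77, SE 0.21, adjusted p 0.0347). Of 16 translation factors and other genes with a TOP start, EEF2 (0.97, SE 0.26) and EEF1G (0.65, SE 0.19) were called higher, with a median over the list of 0.15. In the same list FAU, a ribosomal protein made as a fusion with a ubiquitin-like protein, was not called (0.11, SE 0.19). Of 15 regulators, 1 was called higher and 2 lower. The translation inhibitor EIF4EBP1 was higher, at 117 and 105 CPM against 7.61 and 6.29 CPM (log2 fold change 3.78, SE 0.24, adjusted p 0.000732). RPS6KB2, a kinase of the ribosomal protein RPS6, was called lower, at 3.63 and 2.68 CPM against 6.72 and 7.45 CPM, and MYCN, a transcription factor, was under the floor in HEK and at 1.79 and 1.60 CPM in Jurkat cells. LARP1, which binds TOP mRNAs, had 721 and 490 CPM in HEK and 478 and 552 CPM in Jurkat cells, and the lines overlapped. Over the mixtures, EIF3E of the TOP list had a called positive slope (1.80, SE 0.47) and PES1 of the assembly list a called negative one (−3.09, SE 0.82), against 0.528% and 5.08% of all genes tested.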

How the data were processed

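RNA-seq of 14 libraries was analysed. Per the labels, mRNA was captured with oligo(dT) beads. The authors aligned the reads to GRCh38 with STAR 2.6.1b and deposited RSEM 1.3.1 expected counts, not normalized, and TPM, scaled over genes and spike-ins together. The annotation release and the strand setting of the counting are not given in the sources used here. RSEM divides reads among genes with near-identical copies. A deposited table of the whole series repeats these counts and was not used. Symbols came from GENCODE 44 by identifier (57799 genes matched). CPM used gene counts only, spike-ins left out. Rounded expected counts were tested with edgeR 4.0.16 (TMM, filterByExpr, glmQLFit and glmQLFTest, Benjamini-Hochberg adjustment over all genes tested, threshold 0.05), with DESeq2 1.42.0 as an alternative, in R 4.3.3. The pure fit used the 4 pure libraries, the slope the 10 mixed ones. Named pseudogenes (1600, for 78 of the genes) were added to their genes in an alternative. HEK shares of mRNA for additive mixing were estimated by non-negative least squares. Depth sets precision: a floor of 3 counts is 0.106 to 0.671 CPM, for counting error only. The fits were tested on simulated data. The genes described one by one were those with the largest called changes (up to 8 in each direction, mean of at least 10 CPM), paralogs with their partners, the stalk genes and RPSA, the 3 of highest TPM in each line, and FAU. RPS24, RPL12, RPL17, RPL5, RPL14, RPL9, RPS13, RPS27A and other small subunit genes called, and genes named from the lists, were chosen after their values were seen. Some genes of the set are not reported here. The members and lists were chosen with earlier results of these data known.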

Additional observations from a re-analysis of the deposited data

How the results depend on the processing

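Between the pure lines, the number of ribosomal protein genes called higher in HEK was 29, and 48 with library totals in place of TMM, 0 in the fit over all 14 libraries with the file name group, and 8 to 22 with 1 library left out. It was 27 to 42 under the other alternatives. Fits of the pure lines with 1 library left out compare 1 library with 2, so their counts also reflect less power. Library totals moved the median of all genes by 0.23 on the log2 scale. The difference between the median of the 84 genes and that of all genes was 0.45 under every scaling. It could hardly change, because a scaling moves all genes by nearly the same amount. The number called lower was 1, 2 without a filter on low counts (RPL39L and RPS24) and 1 to 4 with 1 library left out. The slope over the mixtures called 0 lower, 3 with DESeq2, 1 with pseudogenes added (RPLP0), 2 with the expected HEK share of mRNA as covariate (RPL36AL and RPL9) and 0 to 1 with 1 library left out (RPL36AL, without replicate 1 at 40% HEK). With spike-in totals, 83 to 84 were called higher under all alternatives. The share of counts, 12.2% in HEK and 7.88% in Jurkat, was 22.1% and 15.3% by TPM, and 13.2% and 8.51% with pseudogenes added. Leaving out 1 library gave 11.8% to 12.5% and 7.29% to 8.48%.

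Reversed log2 fold changes between the pure lines were those of RPL22 (0.12 with library totals, 0.046 without a filter, 0.014 over all 14 libraries), and over all 14 libraries RPL36AL −0.22, RPLP0 −0.30, RPLP1 −0.094, RPL23 0.20, RPL34 0.064 and FAU −0.049. With 1 library left out, they ran from −0.064 to 0.19 for RPL7L1, −0.41 to 0.28 for RPL22, −0.42 to 1.44 for RPL26, −0.13 to 0.93 for RPLP1, −0.83 to 0.23 for RPL23, −1.04 to 0.24 for RPL34 and −1.05 to 0.12 for RPL21. Reversed slopes with the file name group as a term were RPL22L1 −0.30, RPL29 −0.59, RPL8 −0.32, RPL3 −0.70, RPL10 −0.24, RPL41 −0.18, RPL21 0.15 and FAU −0.17. Others were RPL7 0.020 with pseudogenes added and RPSA 0.056 with library totals. With 1 library left out, slopes ran from −0.33 to 0.42 for RPL22L1, −0.076 to 0.43 for RPL7L1, −0.53 to 0.14 for RPL7, −0.57 to 0.10 for RPS27, −0.275 to 0.16 for RPSA, −0.0057 to 0.36 for RPL41 and −0.094 to 0.37 for FAU. None of these genes was called for a slope. The cause was not tested. No paired analysis was possible because the labels number the mixtures from 1 to 14 and give no replicate number that conditions share.

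With 2 libraries a line, the median SE of a log2 fold change was 0.205. Differences well above it were also not called, among them 0.62 for RPL35A (SE 0.19) and 1.00 for RPL9 (SE 0.35). Shallower libraries were those of pure Jurkat cells.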

Other observations

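The 4 X-linked genes, RPL10, RPL36A, RPL39 and RPS4X, were all called higher in HEK cells, with a median log2 fold change of 1.57 against 0.47 for the 80 tested genes on other chromosomes, of which 25 were called higher and 1 lower. Of all 542 tested genes on the X chromosome, 203 were called higher in HEK and 55 lower, with a median of 0.61. This grouping was noticed after the values were seen and carries no test.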
